A study of Mus musculus with 3 samples.

Results

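Keratins are the structural filament proteins of epithelial cells, and 10 of them, among the 34289 features counted, are described here by name: the basal keratins Krt14, Krt5 and Krt15, the differentiation keratins Krt1, Krt10, Krt2 and Krt77, and the stress keratins Krt6a, Krt16 and Krt17. They were taken by gene symbol, and all 10 were listed in each of the 3 libraries. Their levels were read in keratinocytes, meaning retained cells in which Krt14, Krt5, Krt1 and Krt10 together made up at least 0.5% of the unique molecular identifiers (UMIs, 1 per captured RNA molecule) and the antigen-presentation gene Cd74 less than 1%. A keratinocyte was basal where Krt14 and Krt5 together had more UMIs than Krt1 and Krt10 together, and suprabasal otherwise. Because those 4 genes chose and split the cells, their levels within a class describe the cells that were chosen. The gate did not use Krt15, Krt2, Krt77, Krt6a, Krt16 or Krt17.

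The study profiled Langerhans cells, antigen-presenting cells that reside in the epidermis, from ears of male CD1 mice, an outbred stock. Trypsin-detached epidermis was dissociated, depleted of dead cells and magnetically enriched for Langerhans cells before droplet-based single-cell RNA sequencing, so the keratinocytes are the few that came through that enrichment. There was 1 library per group, and the number of mice behind each is not stated. Untreated mice received a depilatory cream alone, the croton oil group an irritant plant oil with acetone and olive oil, and the microneedle group repeated punches with a microneedle array. Treated ears were taken 48 hours after the first treatment. With 1 library per group no test between conditions was possible, and every interval given is a 95% interval for counting error within a library (exact Poisson or Clopper-Pearson).

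Keratin filaments are built from pairs of one type I and one type II chain. In resting epidermis the dividing basal layer makes Krt5 with Krt14, and cells that leave it switch to Krt1 with Krt10, with Krt2 joining in the upper layers of ear skin. After wounding or irritation, keratinocytes near the damage make Krt6a with Krt16 and Krt17, which are otherwise largely restricted to hair follicles and other appendages.

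The gate found 191 keratinocytes in the untreated, 213 in the croton oil and 92 in the microneedle library, which were 2.11%, 2.79% and 1.42% of the retained cells. Basal cells numbered 93, 190 and 68 and suprabasal cells 98, 23 and 24, in the order untreated, croton oil, microneedle, which is kept from here on. The basal share of the keratinocytes was 48.7% (41.4 to 56.0) in the untreated, 89.2% (84.2 to 93.0) in the croton oil and 73.9% (63.7 to 82.5) in the microneedle library. These are shares of an enriched suspension and not of the skin, and the untreated one depended on the Cd74 limit, at 27.4% with a limit of 0.5%. Cells near the split, with Krt14 and Krt5 at 40% to 60% of the 4 genes, numbered 2, 8 and 7. Just inside the keratin limit, with the 4 genes at 0.5% to 1% of UMIs, lay 18, 6 and 14 cells, and 11, 6 and 6 cells lay just below it. Just inside the Cd74 limit, at 0.5% to 1%, were 74, 23 and 19 cells, and 18, 6 and 0 otherwise qualifying cells were left out at 1% to 2%.

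Genes outside the gate fitted the class names. A list of basal genes other than keratins summed to 2498, 1504 and 2537 CPM (a gene's count per 1000000 UMIs of the summed cells) in basal cells, against 195, 235 and 404.5 CPM in suprabasal cells. A list of suprabasal genes other than keratins summed to 30630, 13210 and 19504 CPM in suprabasal cells and 1381, 2331 and 4054 CPM in basal cells. Marker lists of fibroblasts, mast cells and Merkel cells were at or near 0.

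Marker genes of other cell types were detected in the keratinocyte droplets at levels that differed between libraries. A list of 5 Langerhans cell genes summed to 11354, 3569 and 5064 CPM in basal droplets and 3329, 5322 and 5993 CPM in suprabasal droplets. Only 14 of 93 untreated basal cells had Cd74 under 0.1% of UMIs, against 125 of 190 and 42 of 68 in the treated libraries. The remaining basal droplets, with Cd74 at 0.1% to 1%, also held Ptprc, a marker of blood-derived cells, at 218, 63.5 and 128 CPM. The main keratin levels below are therefore given also for droplets with Cd74 under 0.1%, a split chosen after seeing the data. A list of 5 neutrophil genes summed to 5.62, 1948 and 930 CPM in basal cells and 56.6, 2955 and 1539 CPM in suprabasal cells. Only 2 of the 5 genes reached 20 CPM in treated basal cells, and S100a8 and S100a9, which led the list, are also genes of injured epidermis. In suprabasal droplets with Cd74 under 0.1% that list was at 49.4, 5449 and 3431 CPM, and a T cell list at 47.5, 408 and 9.29 CPM. Whether this RNA came from other cells, and its part in the keratin levels, was not tested. A list of cell cycle genes summed to 272, 1758 and 1146 CPM in basal cells. Suprabasal microneedle cells were shallow, with a median of 4442 UMIs against 31837 and 37514 in the other 2 libraries. Between pairs of libraries 32, 17 and 13 cell barcodes were shared, and none of them was a keratinocyte in both.

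**Figure D1:**
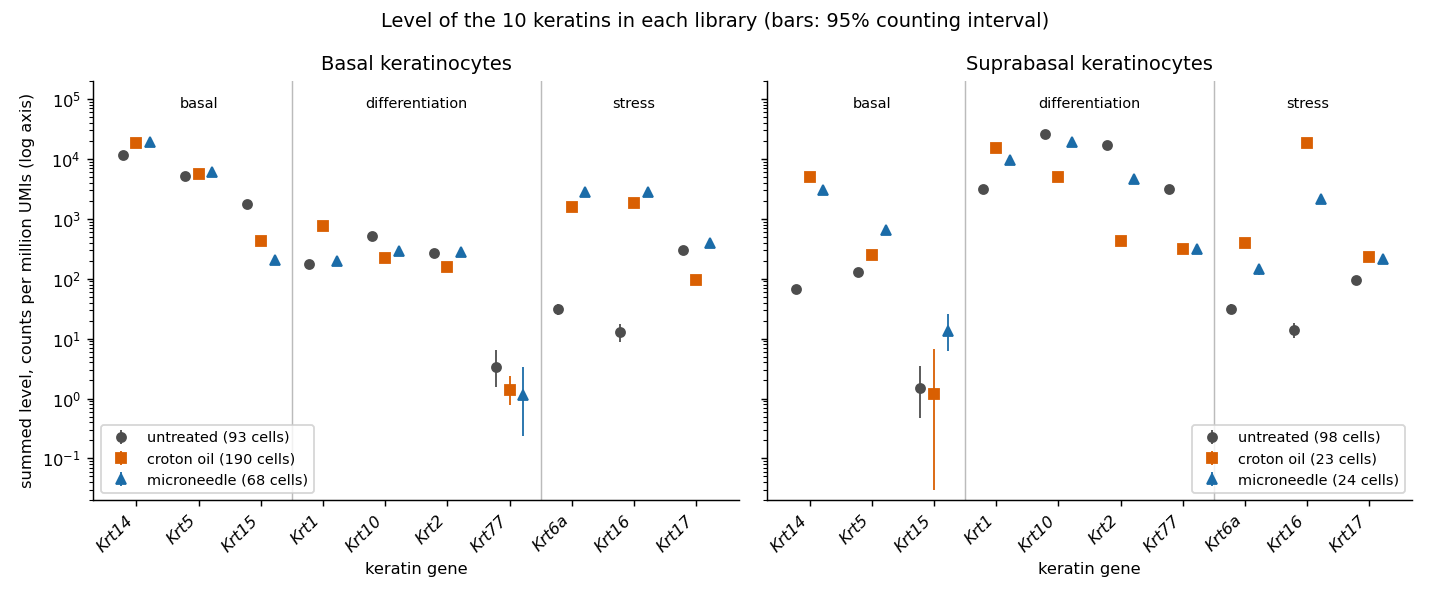
Level of each of the 10 keratins in CPM (log axis) in basal and in suprabasal keratinocytes of the untreated, croton oil and microneedle library, with bars for the exact Poisson interval of the summed count. In both classes Krt16 and Krt6a stand lowest in the untreated library, and in suprabasal cells Krt2 stands lowest in the croton oil library.

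Among the basal keratins, the main pair kept its place and Krt15 was lower after both treatments. Krt14, the type I partner of Krt5, was at 11776, 18636 and 18940 CPM in the basal cells of the 3 libraries. Krt5 was at 5177, 5651 and 6149 CPM. Neither reached a 2-fold difference from untreated on the scale log2((CPM + 5)/(CPM + 5)), with 0.66 and 0.69 for Krt14 and 0.13 and 0.25 for Krt5. Under another scaling (trimmed mean of M values, TMM), which shifted every basal croton oil change by 0.47, Krt14 passed 2-fold in croton oil at 1.13. In droplets with Cd74 under 0.1% the levels of Krt14 were closer together, at 18608, 20347 and 21244 CPM.

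Krt15, a type I keratin of basal cells and of the hair follicle bulge, was at 1781 CPM (1731 to 1832), 425 CPM (412 to 438) and 203 CPM in basal cells. The untreated library was highest and, in these sums, the microneedle library lowest. From untreated, the log2 change came to -2.05 with croton oil and -3.10 with microneedles. A Krt15 UMI was found in 81 of 93 untreated basal cells and in 85 of 190 croton oil basal cells, in which the median cell had none. After thinning each cell to 3000 UMIs a Krt15 UMI was found in 69 of 90, 55 of 178 and 15 of 60 basal cells, against 0.945%, 0.167% and 0.0193% of Langerhans cells. In droplets with Cd74 under 0.1% the levels were 1921, 716 and 105 CPM, and with Cd74 at 0.1% to 1% they were 1764, 99.4 and 306 CPM. The treated libraries were lower in both, but which of them was lowest differed, with log2 values of croton oil against microneedle of 1.05 over all cells and -1.57 at 0.1% to 1% Cd74.

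The croton oil value of Krt15 depended on which cells were summed. Cells with at least 2 UMIs of the proliferation genes Mki67 and Top2a made up 18 of 93, 141 of 190 and 32 of 68 basal cells, and they were deeper than the rest. In these cells Krt15 was at 1879, 180.5 and 91.3 CPM. In the cells without them Krt15 was at 1750, 2204 and 419.7 CPM, so the summed croton oil level was no lower than the untreated one. There, 5 cells held 81.1% of the 2668 croton oil UMIs, and the median cell had 101.6 CPM against 1303 CPM in untreated cells. In the treated libraries Krt15 was thus lower in the deeper, cycling cells, while in the untreated library it was about level between them. The part of depth and cell cycle in the result was not tested.

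Of the basal keratins, Krt14 stood apart in suprabasal cells, low in the untreated and far higher in the treated libraries. It was at 68.1, 5037 and 3051 CPM, log2 changes from untreated of 6.11 and 5.39. All 23 croton oil suprabasal cells had a Krt14 UMI, against 22 of 98 untreated ones. Krt5 was at 132, 244.5 and 645 CPM, log2 changes of 0.87 with croton oil and 2.25 with microneedles. Krt5 was among the genes that set the gate, and with a gate and split that used no keratin both calls changed places: it was then at 52.6, 894.8 and 71.3 CPM, log2 changes of 3.96 and 0.40. Krt15 was low in all 3 libraries, at 1.48, 1.19 and 13.4 CPM. In suprabasal droplets with Cd74 under 0.1%, Krt14 was at 7.39, 7003 and 608 CPM.

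The differentiation keratins diverged from each other in the croton oil library, where Krt1 was higher and its partner Krt10, Krt2 and Krt77 were lower than in untreated suprabasal cells. Promoter sequences were at hand for 5 of the 10 keratins (RefSeq, build GRCm38.p6), and those of Krt10, Krt2 and Krt77 are printed because these 3 genes were lower together. Each is the minus strand of the 250 bases before the start, 5′ to 3′, with matches to TATANA on either strand in capitals, overlapping matches joined: Krt10 from chr11:99389365-99389614, Krt2 from chr15:101818170-101818419 and Krt77 from chr15:101869706-101869955.
Krt10: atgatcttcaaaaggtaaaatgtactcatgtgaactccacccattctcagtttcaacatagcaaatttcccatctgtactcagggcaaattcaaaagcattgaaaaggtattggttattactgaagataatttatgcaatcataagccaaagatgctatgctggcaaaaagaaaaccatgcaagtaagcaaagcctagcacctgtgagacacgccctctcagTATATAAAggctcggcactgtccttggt
Krt2: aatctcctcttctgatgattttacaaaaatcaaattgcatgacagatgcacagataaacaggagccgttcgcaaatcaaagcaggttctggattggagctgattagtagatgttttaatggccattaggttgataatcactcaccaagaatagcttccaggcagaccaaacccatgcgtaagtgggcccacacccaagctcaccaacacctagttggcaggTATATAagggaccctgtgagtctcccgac
Krt77: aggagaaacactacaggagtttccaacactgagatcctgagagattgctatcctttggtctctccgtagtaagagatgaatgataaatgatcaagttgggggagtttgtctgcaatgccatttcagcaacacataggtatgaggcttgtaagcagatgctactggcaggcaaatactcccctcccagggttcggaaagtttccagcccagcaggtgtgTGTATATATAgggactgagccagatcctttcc
The matches begin 26 and 28 bases before the start in Krt10, 29 bases in Krt2 and 28, 30 and 32 bases in Krt77. The other 2 matched promoters, of Krt14 and Krt5, held no TATANA. The motif TATANA lies in 22.6% of 32851 promoters of this length and in the last 60 bases of 6.43%. The motif TGANTCA, searched on both strands as well, was found in none of the 5 matched windows and in 6.75% of all. A match is a string of letters and was not tested as a site.

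Krt10, the type I keratin of committed suprabasal cells, was at 26472, 5041 and 19316 CPM in suprabasal cells, log2 changes of -2.39 and -0.45. Krt1, its type II partner, was at 3097, 14988 and 9422 CPM, log2 changes of 2.27 and 1.60. The croton oil library was thus lowest in Krt10 and highest in Krt1. Krt1 UMIs per Krt10 UMI were 0.117, 2.97 and 0.488, and Krt1 outnumbered Krt10 in 2 of 98, 19 of 23 and 4 of 24 cells. Both genes took part in the gate, but the split sums them and did not set their ratio.

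Krt2, a type II keratin of the upper spinous and granular layers of ear skin, was at 16779 CPM (16641 to 16917), 419 CPM (376 to 465) and 4586 CPM in suprabasal cells. Its log2 changes were -5.31 and -1.87, and the untreated library was the highest. Krt77, another type II keratin of suprabasal epidermis, was at 3173, 318 and 313.5 CPM, log2 changes of -3.30 and -3.32. Without the 1 cell with the most UMIs of Krt77 it was at 115.5 CPM with croton oil and at 46.4 CPM with microneedles, and microneedle Krt2 without its highest cell was at 2336 CPM. In the 67, 13 and 13 suprabasal droplets with Cd74 under 0.1%, Krt2 was at 18074, 481 and 13689 CPM, Krt10 at 29010, 6570 and 29128 CPM, Krt1 at 3544, 19665 and 3250 CPM and Krt77 at 4078, 618 and 910 CPM. There the microneedle levels of Krt2, Krt10 and Krt1 were within 2-fold of untreated and the croton oil levels were not. These microneedle levels rested in large part on the highest cell of each keratin. It held 1764 of 2948 Krt2 UMIs, 3936 of 6273 Krt10 UMIs and 392 of 700 Krt1 UMIs. Without it the levels were 11238, 22182 and 1623 CPM, so that Krt1 was then more than 2-fold below untreated. The low microneedle level of Krt2 lay in the 11 droplets with Cd74 at 0.1% to 1%, at 273 CPM, against 14460 CPM in such untreated droplets and 373 CPM in such croton oil droplets.

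Untreated suprabasal cells held more than one differentiation pattern. A Krt1 UMI was missing in 49 of the 98 cells although their median depth was 27185 UMIs, against 32156 in the 49 with one. In the cells without Krt1 the median cell had 21955 CPM of Krt2 (quartiles 15884 and 37311), and in those with Krt1 it had 549.2 CPM (19.7 and 7285). Krt77 ran the other way, with a summed level of 684.8 CPM without Krt1 and 5716 CPM with it. Krt24, a type I keratin outside the 10, was at 678 CPM without Krt1 and 85.0 CPM with it. Over all 98 cells Krtdap was at 15742 against 16543 CPM, Calm4 at 8959 against 7382 CPM and Endou at 199 against 109 CPM. In the 31 droplets with Cd74 at 0.1% to 1% the first 2 were higher in the cells without Krt1, Krtdap at 17040 against 10161 CPM and Calm4 at 8883 against 4882 CPM. Droplets under 0.1% Cd74 went the other way for Krtdap, at 15077 CPM without Krt1 against 20427 CPM with it. Calm4 was about level there, at 8997 against 8904 CPM. With Cd74 under 0.1% the median Krt2 level was 21793 CPM in 38 cells without Krt1 and 1103 CPM in 29 with it. In the croton oil library all 23 suprabasal cells had a Krt1 UMI, and their median Krt2 level was 495 CPM. In the microneedle library 20 of 24 had one, and the median Krt2 level was 11276 CPM in the 4 cells without it and 982 CPM in the 20 with it. These groups of cells were formed from Krt1 after seeing the data and are a description of cells, with no test.

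**Figure D2:**
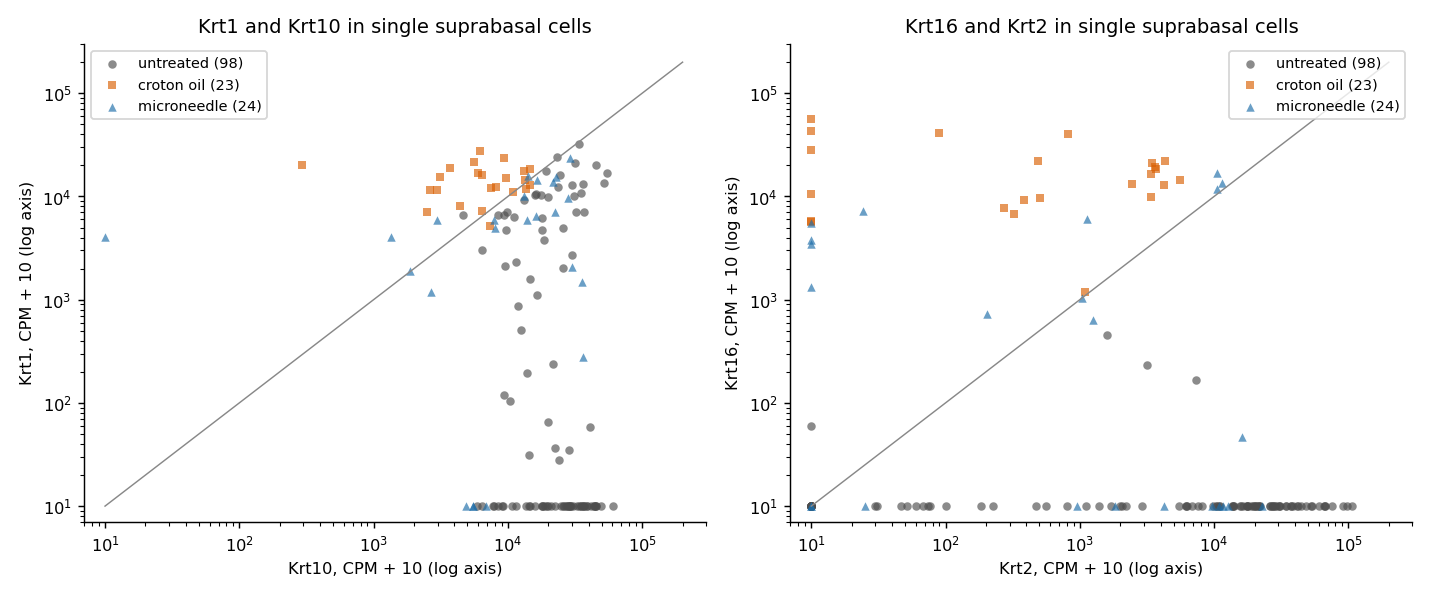
Each point is 1 suprabasal keratinocyte of the untreated (98 cells), croton oil (23) or microneedle (24) library, by Krt10 and Krt1 (left) and by Krt2 and Krt16 (right), in CPM + 10 on log axes, with a line where both genes are equal. Croton oil cells lie mostly above the line in both plots (19 of 23 for Krt1 over Krt10), and 49 untreated cells lie along the bottom of the left plot with no Krt1.

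In basal cells the differentiation keratins were low. Krt1 was at 173, 755 and 195 CPM, Krt10 at 522, 221 and 288 CPM, Krt2 at 273, 160 and 275 CPM and Krt77 at 3.37, 1.40 and 1.13 CPM. Over all basal cells Krt1 was highest and Krt10 lowest in the croton oil library, as in suprabasal cells, with log2 changes of 2.09 and -1.22. Both genes took part in the gate, and with cells gated and split by genes other than keratins basal Krt1 was at 791, 750.3 and 706 CPM, a log2 change of -0.08 in croton oil, while Krt10 was again lowest in croton oil, at 2521, 150 and 1156 CPM. Basal droplets with Cd74 under 0.1% had Krt1 at 563, 666 and 274 CPM and Krt10 at 959, 148 and 435 CPM. Of the 14 untreated cells behind these values 1 held 124 of the 159 Krt1 UMIs and 232 of the 271 Krt10 UMIs. Without that cell untreated Krt1 was at 133 CPM and Krt10 at 148 CPM. Krt1 was then higher in croton oil cells in this stratum too, and untreated Krt10 was at the croton oil level. With Cd74 at 0.1% to 1%, Krt1 was at 127, 855 and 113 CPM, again highest in croton oil. Krt10 was at 470.5, 302 and 135 CPM there, lowest in the microneedle library, with a croton oil log2 change of -0.63.

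The stress keratins Krt16 and Krt6a were higher than untreated after both treatments, in both classes and in every one of the 22 alternative settings. Settings that changed only the minimum level could not move these changes. Krt16, the type I stress keratin, was at 12.7 CPM (8.82 to 17.8), 1872 CPM and 2754 CPM in basal cells, log2 changes of 6.73 and 7.28. Krt6a, its type II partner, was at 31.1, 1567 and 2795 CPM, log2 changes of 5.44 and 6.28. In these summed levels the microneedle library was highest for both. Without the 1 microneedle cell with the most Krt16 the level was 1874 CPM, about that of croton oil. Over the alternative settings the basal log2 change of Krt16 ranged from 4.82 to 7.37 in croton oil and from 5.90 to 7.65 in microneedle cells, and that of Krt6a from 2.32 to 7.88 and from 3.96 to 8.68.

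In suprabasal cells Krt16 was at 13.9 CPM, 18455 CPM (18166 to 18747) and 2173 CPM. Here the croton oil library was highest, with log2 changes of 9.93 and 6.85 from untreated and 3.08 between the treated libraries. Krt6a was at 31.7, 398 and 145 CPM, and all 107 untreated UMIs lay in 1 of the 98 cells. Krt16 UMIs per Krt6a UMI were 1.20 and 0.985 in treated basal cells and 46.4 and 15.0 in treated suprabasal cells, in croton oil and microneedle. The suprabasal ratios moved with the choice of cells: under 0.1% Cd74 they were 112.5 and 2.25, the latter from 72 and 32 UMIs. With the gate and split that used no keratin, Krt16 and Krt6a were at 14398 and 1662 CPM in croton oil and at 6615 and 3801 CPM in microneedle suprabasal cells. Suprabasal droplets with Cd74 under 0.1% had Krt16 at 19.4, 30193 and 334 CPM, and the high microneedle level lay in the droplets with more Cd74, at 3045 CPM. In the microneedle library 1 suprabasal cell held 1008 of the 1456 Krt16 UMIs, and without it the level was 847 CPM. Basal Krt16 with Cd74 under 0.1% was at 53.1, 1632 and 3459 CPM, and basal Krt6a at 269, 1365 and 4268 CPM. Of the 76 untreated Krt6a UMIs there 75 lay in 1 droplet, without which the level was 4.16 CPM. In the basal droplets with more Cd74, Krt16 was at 7.96, 2141 and 2019 CPM and Krt6a at 2.93, 1793 and 1261 CPM. The microneedle values there rested on 1 cell, without which they were 67.3 CPM for Krt16 and 341 CPM for Krt6a.

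Krt6b, a close copy of Krt6a and outside the 10, showed the same order in basal cells, at 0.375 CPM (1 UMI), 602 and 725 CPM. In suprabasal cells it was at 1.19, 2170 and 537 CPM, with 0.0374, 5.46 and 3.71 Krt6b UMIs per Krt6a UMI, against 0.384 and 0.260 in treated basal cells. The microneedle suprabasal level and ratio rested on 1 cell with 306 of the 360 Krt6b UMIs. Without it Krt6b was at 102 CPM. Krt6b outnumbered Krt6a in 20 of 23 croton oil but only 5 of 24 microneedle suprabasal cells. In suprabasal droplets with Cd74 under 0.1% the Krt6b to Krt6a ratio was 11.7 in croton oil and 0.719 in microneedle cells, the latter from 23 and 32 UMIs. Of the 90-base windows of the Krt6a transcript 37.1% also occur in other transcripts, Krt6b and Krt5 among them, but none of the 511 in its last 600 bases, the end that a 3′ assay reads. For Krt16 118 of the 511 windows at that end (23.1%) also occur in the transcript of another gene, so the authors' counting may have left out or split some of its reads and its level is uncertain to that extent.

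Krt17, a type I keratin of follicles and wounded epidermis, was at 304, 97.1 and 395 CPM in basal cells. The untreated value rested on 1 droplet of 42213 UMIs, with no Cd74 UMI, which held 797 of the 810 Krt17 UMIs and 75 of the 83 Krt6a UMIs. In that droplet a list of hair follicle genes took 1.54% of the UMIs. Without it the untreated levels were 4.95 CPM for Krt17 and 3.05 CPM for Krt6a, and the log2 change of Krt17 in croton oil turned from -1.60 to 3.36. In microneedle cells it went from 0.38 to 5.33, so that Krt17 was then at least 2-fold above untreated with both treatments. After thinning to 3000 UMIs a Krt17 UMI was found in 2.22%, 15.7% and 13.3% of basal cells. In suprabasal cells Krt17 was at 95.7, 227 and 212 CPM, log2 changes of 1.20 and 1.11. The microneedle change turned to -1.59 with Cd74 under 0.1%, where the levels were 122, 156.5 and 37.2 CPM. Of the 142 microneedle suprabasal Krt17 UMIs 127 lay in 1 cell, and without it the level was 28.4 CPM, below untreated. Of the 191 croton oil suprabasal Krt17 UMIs 89 lay in 1 cell. Without that cell the level was 131 CPM, less than 2-fold above untreated.

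Per cell, Krt16 and Krt6a were detected in many treated basal cells but at uneven levels. After thinning, a Krt16 UMI was found in 1 of 90 untreated (1.11%), 92 of 178 croton oil (51.7%, 44.1 to 59.2) and 21 of 60 microneedle basal cells (35.0%, 23.1 to 48.4). Split by Cd74 and thinned in a separate random draw, the counts were 58 of 113 under 0.1% and 42 of 65 above it with croton oil, but 16 of 35 and 3 of 25 with microneedles. The unthinned shares were 16.1%, 79.0% and 57.4%, at median depths of 29086, 52201 and 33420 UMIs. In Langerhans cells, which should lack the gene, the thinned shares were 0% (0 of 8465 cells, an exact upper bound of 0.0436%), 7.22% and 1.70%. Unthinned, 0.0931% of the untreated Langerhans cells had a Krt16 UMI. For Krt6a the thinned shares were 1.11%, 76.4% and 41.7% in basal cells and 0.0473%, 1.21% and 0.502% in Langerhans cells. In that draw microneedle basal cells with Krt6a also lay mostly under 0.1% Cd74, 20 of 35 there and 4 of 25 above it, against 84 of 113 and 49 of 65 with croton oil. The highest 10% of the basal cells held 67.8% of the Krt16 UMIs in the croton oil and 91.3% in the microneedle library. The median basal cell had 0, 338.8 and 49.1 CPM of Krt16 and 0, 951.5 and 53.3 CPM of Krt6a, so by the median the croton oil library was highest. In suprabasal cells thinned Krt16 was found in 1 of 92, 16 of 16 and 5 of 15 cells.

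Stress keratins took at least 5% of a cell's UMIs of the 10 keratins in 2 of 93, 100 of 190 and 23 of 68 basal cells, and in 2 of 98, 23 of 23 and 11 of 24 suprabasal cells. Among basal droplets with Cd74 under 0.1% the counts were 1 of 14, 56 of 125 and 21 of 42, and among those with Cd74 at 0.1% to 1% they were 1 of 79, 44 of 65 and 2 of 26. The microneedle basal cells that reached 5% thus lay almost all under 0.1% Cd74, and the croton oil ones on both sides. Summed over cells, the stress keratins made up 1.73%, 12.0% and 18.6% of the keratin UMIs in basal cells and 0.283%, 42.3% and 6.35% in suprabasal cells. Under 0.1% Cd74 these shares were 9.37%, 9.74% and 22.4% in basal and 0.347%, 47.1% and 1.08% in suprabasal droplets, and at 0.1% to 1% Cd74 they were 0.0886%, 15.1% and 13.1% in basal and 0.130%, 34.7% and 9.69% in suprabasal droplets. Without the 1 droplet rich in Krt17 the untreated basal share was 0.106% over all cells and 0.202% under 0.1% Cd74, so the 9.37% came from that droplet. At 0.1% to 1% Cd74, 1 microneedle basal cell held 2548 of the 2628 Krt16 UMIs. Croton oil suprabasal cells were thus the group with the largest stress share among these 6, and differentiation keratins made up 46.0% of their keratin UMIs against 99.3% in untreated ones.

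**Figure D3:**
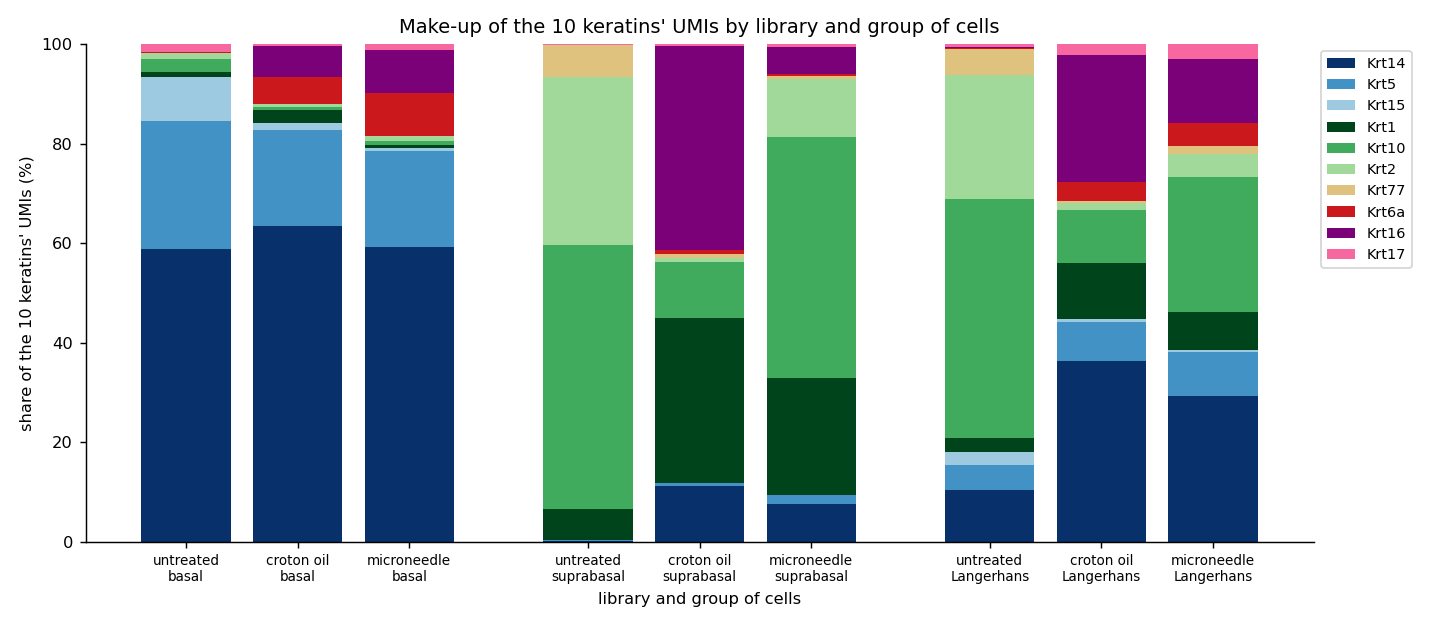
Shares of the UMIs of the 10 keratins (percent) taken by each keratin in basal keratinocytes, suprabasal keratinocytes and Langerhans cells of the 3 libraries (stacked bars, basal keratins blue, differentiation keratins green and tan, stress keratins red, purple and pink). The stress keratins take 0.283% in untreated and 42.3% in croton oil suprabasal cells, where Krt16 fills most of it.

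**Figure D4:**
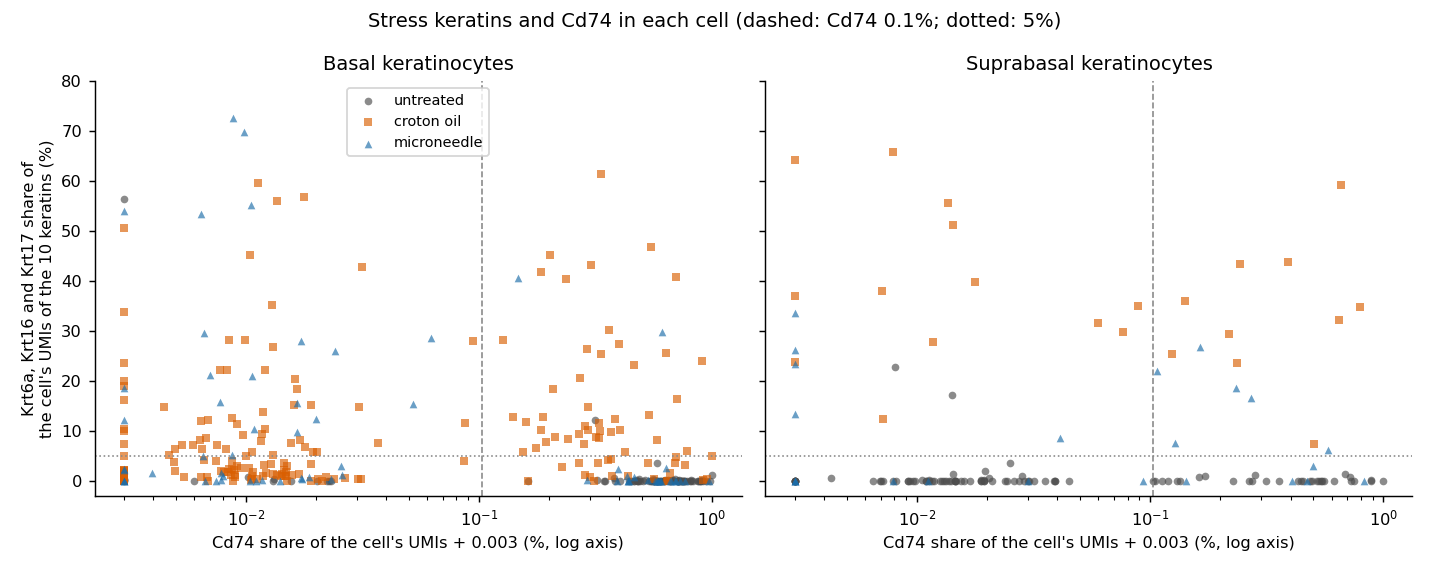
Share of stress keratins among the UMIs of the 10 keratins (percent) in each keratinocyte against the share of Cd74 among all its UMIs (percent, log axis), by class and library, with a dashed line at 0.1% Cd74 and a dotted line at 5%. Croton oil basal cells that reach 5% lie on both sides of 0.1% Cd74 (56 and 44 cells), microneedle ones mostly below it (21 and 2), and 2 of 93 untreated basal cells reach 5%.

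The most abundant keratin of single suprabasal cells differed between the libraries. In untreated suprabasal cells it was Krt10 in 67, Krt2 in 24, Krt77 in 6 and Krt1 in 1 of 98 cells. In croton oil suprabasal cells it was Krt16 in 11, Krt1 in 8, Krt14 in 3 and Krt10 in 1 of 23 cells. In microneedle suprabasal cells it was Krt10 in 15, Krt2 in 4, Krt1 in 2, Krt14 in 2 and Krt16 in 1 of 24 cells. Krt16 outnumbered Krt10 in 0 of 98, 18 of 23 and 2 of 24 cells. In basal cells Krt14 led in 86 of 93, 179 of 190 and 65 of 68 cells.

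Counted over all genes, a gene was compared where 1 of the 2 libraries reached 20 CPM. In every comparison 9 of the 10 keratins did, all but Krt77 in basal and all but Krt15 in suprabasal cells. Krt16, at 12.7 and 13.9 CPM in untreated basal and suprabasal cells, passed against untreated only through the treated library. Its calls there describe it and add no support to the counts. The treated libraries share the untreated one as their control. In basal cells croton oil had 3 keratins at least 2-fold above untreated (Krt1, Krt6a and Krt16) and 3 below it (Krt15, Krt10 and, through the 1 droplet, Krt17), where 10.7% and 16.2% of 7766 genes were. Microneedle basal cells had 2 above and 1 below, where 5.79% and 5.17% of 7770 genes were. In suprabasal cells croton oil had 5 above and 3 below, where 10.9% and 11.1% of 6943 genes were. Microneedle suprabasal cells had 6 above and 2 below, where 10.7% and 6.92% of 7004 genes were. Set directly against microneedle, croton oil had 2 above and 1 below in basal cells, where 1.13% and 6.64% of 7360 genes were. In suprabasal cells that comparison had 2 above and 3 below, where 4.14% and 8.25% of 7045 genes were.

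In droplets with Cd74 under 0.1% all 10 keratins were compared in basal cells. There 2 were above (Krt6a and Krt16) and 5 below untreated for croton oil (12.3% and 13.7% of all genes), and 2 above and 5 below for microneedle (12.8% and 8.79%). Krt15, Krt10, Krt77 and Krt17 were below in both, and Krt2 with croton oil and Krt1 with microneedles were the others. Only 14 untreated cells stand behind these calls, and in all but Krt15 and Krt16 most of the untreated UMIs lay in 1 cell. Without its highest cell untreated Krt15 was at 1418 CPM, Krt10 at 148, Krt1 at 133, Krt2 at 53.2 and Krt77 at 12.5 CPM (3 UMIs), and Krt17 had no UMI. Treated Krt15 was still lower, at 716 and 105 CPM, though just under 2-fold with croton oil. Treated Krt10 was at 148 and 435 CPM and treated Krt17 at 88.9 and 512 CPM. Croton oil Krt2 was at 151 CPM and microneedle Krt1 at 274 CPM, so none of these calls below untreated then remained. Krt77, compared through the untreated library alone, no longer reached 20 CPM. In these 14 cells a list of hair follicle genes summed to 2548 CPM. Most of that sum came from the droplet rich in Krt17, which held 42213 of their 282627 UMIs, with 1.54% of its own in the list. The suprabasal counts were 4 above and 3 below for croton oil (10.9% and 15.6%) and 4 above and 2 below for microneedle (11.8% and 6.76%). Untreated Krt14 and Krt16 were at 7.39 and 19.4 CPM there, so both passed only through the treated library. Of the genes called in croton oil basal cells 39.8% were above untreated, and 73.1% under TMM scaling. The same shares were 60.7% and 37.7% for microneedle suprabasal cells and 49.6% and 38.5% for croton oil suprabasal cells. For croton oil against microneedle basal cells they were 14.5% and 71.2%. TMM shifted the other comparisons by 0.04 (microneedle basal), -0.16 (croton oil suprabasal), -0.26 (microneedle suprabasal), 0.44 and 0.10 (croton oil against microneedle, basal and suprabasal) on the log2 scale.

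Levels of the keratins were then set against each other cell by cell within each library, over the 93, 190 and 68 basal cells, as a description. Krt16 and Krt6a had correlations of log levels of -0.07, 0.62 and 0.86, the first resting on 7 untreated cells with a Krt6a UMI, and Krt15 and Krt16 of -0.16, -0.45 and -0.50. These cells share their library, and depth differs between them. With Cd74 under 0.1% the values were -0.23, 0.59 and 0.84 for Krt16 and Krt6a, and 0.04, -0.43 and -0.39 for Krt15 and Krt16. The genes most like Krt16 by the mean correlation of the 3 libraries, among 10465 genes, were Lypd3 (0.62), Klk10 (0.57), Fabp5 (0.52), Cstb (0.49) and Krtdap (0.48). Fabp5, which codes for a fatty acid binding protein, owed its place to the treated libraries, with -0.06, 0.78 and 0.83. Most like Krt15 were Apoe (0.41) and Smoc2 (0.40), and most like Krt10 were Krt1 (0.69) and Calm4 (0.63). Most like Krt14 was Rpl10a (0.57), a ribosomal protein gene, and Krt5 was among the 5 nearest (0.55). Krt77, Krt6a and Krt17 were detected in too few basal cells of at least 1 library for the ranking of genes most like each keratin.

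Genes of the injured epidermis other than the 10 keratins were compared next. In basal cells 14 genes of a list of 18 were compared, of which 13 were at least 2-fold above untreated with croton oil and 12 with microneedles, and 0 were below with either, with median log2 changes of 3.34 and 3.66 against -0.15 and 0.01 over all genes, of which 10.7% and 5.79% were above. In suprabasal cells 11 of 14 were above with croton oil and 10 of 13 with microneedles, where 1 was below, with medians of 2.92 and 1.76 against 0.07 and 0.13 over all genes, of which 10.9% and 10.7% were above and 11.1% and 6.92% below. Of the 14 basal genes, 12 passed the 20 CPM minimum only in the treated library in each comparison, and of the suprabasal ones 6 and 5 did. Such genes had to differ, so these counts and medians describe the list and support nothing. Fabp5 went from 19.9 to 5978 CPM in croton oil basal cells, a log2 change of 7.91, while Langerhans cells went from 13.0 to 165 CPM. The cornified envelope precursors Sprr1b and Sprr1a went from 5.99 to 1380 CPM and from 1.87 to 738 CPM in microneedle basal cells. The calprotectin subunit S100a9 went from 0.375 to 1087 CPM in croton oil basal cells. Neutrophils, which carry S100a9, numbered 0, 194 and 401 in the 3 libraries, Langerhans cells went from 0.226 to 21.8 CPM of S100a9, and the part of neutrophil RNA in it was not tested. Cd44, a hyaluronan receptor, was at a log2 change of 0.03 in croton oil basal cells.

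Genes that anchor keratin filaments to the membrane were looked at next. Of 13 in basal cells 1 was at least 2-fold above and 1 below untreated with croton oil, and 1 above and 0 below with microneedles, where 10.7% and 16.2% and 5.79% and 5.17% of all genes were, with median log2 changes of 0.27 and 0.31. With 13 genes these counts are too small to set the list apart from all genes. The higher one was Eppk1, the linker epiplakin, at 1.42 and 1.09. The lower one was Dst, the hemidesmosomal linker dystonin, which went from 649 to 232 CPM in croton oil, while Langerhans cells had 233 and 379.5 CPM. Of 12 compared in suprabasal cells 0 were above and 1 below with croton oil, and 1 above and 1 below with microneedles, with medians of -0.15 and -0.38. Over all genes there the shares above and below were 10.9% and 11.1% with croton oil and 10.7% and 6.92% with microneedles, with medians of 0.07 and 0.13.

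Among 24 regulators of keratin genes 0 were at least 2-fold above and 2 below untreated in croton oil basal cells, and of 23 compared, 2 above and 1 below in microneedle basal cells, with medians of 0.14 and -0.01. All genes had 10.7% above and 16.2% below with croton oil and 5.79% and 5.17% with microneedles. The lower ones in croton oil were Atf3, a stress-response factor, at -1.24, and Trp63, the p63 master factor of stratified epithelia, which went from 641 to 281 CPM. Under TMM scaling, which shifted every basal croton oil change by 0.47, both would be less than 2-fold lower. Sox9, a follicle factor, was at 1.81 and Grhl3, a barrier factor, at 1.08 in microneedle cells, where Fos was at -1.14. Langerhans cells of the untreated library had 2494 CPM of Atf3, 3453 CPM of Fos and 1876 CPM of Jun. The list of Langerhans cell genes was highest in untreated basal droplets, and the part of such RNA in these changes was not tested. In suprabasal cells, of 24 compared, 4 were above and 1 below with croton oil (10.9% and 11.1% of all genes) and 4 above and 5 below with microneedles (10.7% and 6.92%).

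Of 44 other keratins in the feature lists 6 reached 50 CPM in a keratinocyte group and 11 had no UMI in any. Beside Krt6b these were Krt23, Krt24, Krt78, Krt79 and Krt80. In suprabasal cells Krt23 was at 336, 1.19 and 104.5 CPM, Krt24 at 385, 0 and 13.4 CPM, Krt78 at 222, 29.7 and 77.6 CPM and Krt80 at 449.5, 110 and 170 CPM. All 4 were highest in the untreated library. The microneedle values of Krt23 and Krt78 rested on 1 cell each, without which they were 1.79 and 10.7 CPM. Krt79, known from follicle and sebaceous ducts, was at 98.2, 2.30 and 38.0 CPM in basal cells. Of the 262 untreated Krt79 UMIs 256 lay in the droplet rich in Krt17, and without it the level was 2.28 CPM.

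Keratin UMIs were also found in Langerhans cells, which are not known to make these keratins (retained cells with Cd74 of at least 1%, a UMI of Cd207 or Epcam and the 4 gating keratins under 0.5%), and their makeup differed between libraries. In 8597, 6035 and 5270 Langerhans cells Krt16 had 8, 1916 and 504 UMIs, or 0.0752, 23.5 and 5.28 CPM. The ratio to untreated was 313 (158 to 725) in croton oil and 70.2 (35.4 to 163.5) in microneedle cells. Krt10 was at 45.6, 9.82 and 11.2 CPM, and Krt2 at 23.6, 1.35 and 1.91 CPM, so both were highest in the untreated library. Krt14 was at 9.86, 33.4 and 12.1 CPM, Krt1 at 2.71, 10.4 and 3.13 CPM and Krt15 at 2.58, 0.466 and 0.199 CPM.

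The stress keratins made up 0.939%, 31.5% and 20.5% of the keratin UMIs in Langerhans cells and the differentiation keratins 81.0%, 23.8% and 40.9%. Each keratin stood at 0.0721% to 1.98% of its level in the pooled keratinocytes of the same library. In the untreated library 1% of the Langerhans cells held 22.9% of the Krt14 UMIs, with 20 UMIs in the highest cell. The ratio between keratins was not the same in every cell type of a library. Krt10 UMIs per Krt14 UMI were 4.63, 0.294 and 0.927 in Langerhans cells, while croton oil neutrophils had 497 CPM of Krt14 and 16.03 CPM of Krt10, and microneedle neutrophils 102 and 63.8 CPM. Free RNA, droplets holding cells of both kinds and cells stuck together cannot be told apart in these counts.

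**Figure D5:**
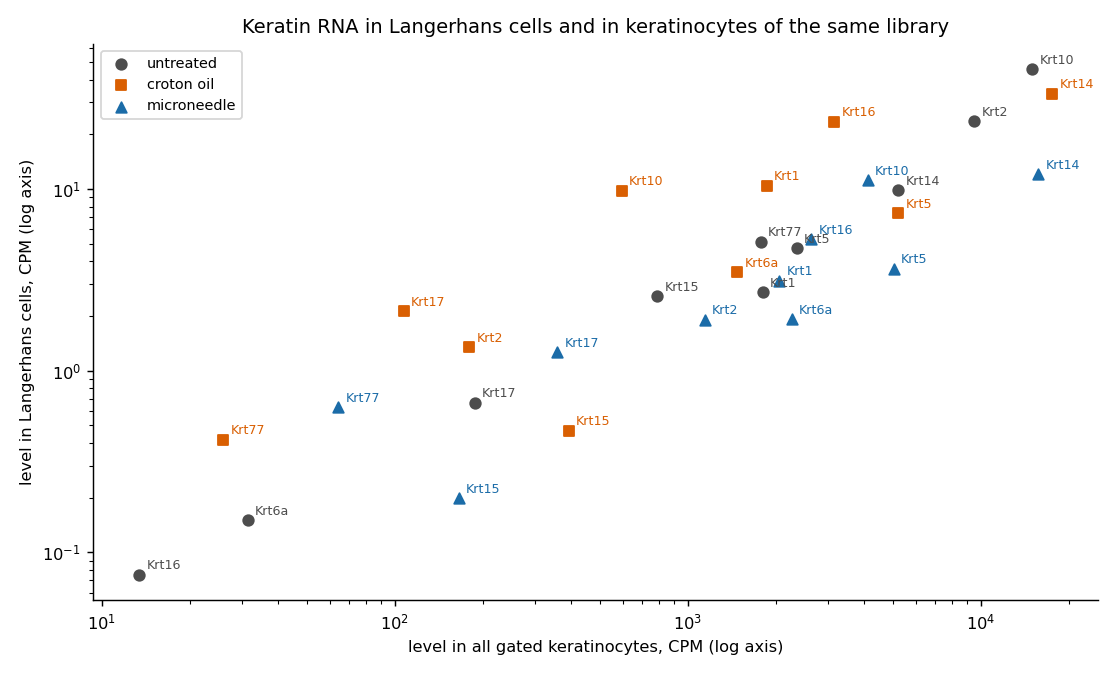
Level of each of the 10 keratins in Langerhans cells against its level in all gated keratinocytes of the same library, both in CPM (log axes), with 1 point per keratin and library. Krt16 lies lowest of all points in the untreated library, at 0.0752 CPM in Langerhans cells, and at 23.5 CPM in the croton oil library.

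The genes lie in the mouse keratin clusters, all on the minus strand (GRCm39, GENCODE M39). The type I genes, with 8 exons each, are on chromosome 11: Krt10 at chr11:99276072-99280195, Krt15 at chr11:100022584-100026775, Krt14 at chr11:100093988-100098490, Krt16 at chr11:100136917-100139795 and Krt17 at chr11:100147040-100151974. The type II genes, with 9 exons each, are on chromosome 15: Krt6a at chr15:101598345-101602742, Krt5 at chr15:101615505-101621346, Krt2 at chr15:101719124-101726605, Krt1 at chr15:101753861-101759229 and Krt77 at chr15:101767166-101778245.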

How the data were processed

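Male CD1 mouse ear epidermis enriched for Langerhans cells gave 3 libraries, with 9876, 8241 and 6945 barcodes and 127666928, 119360952 and 117178809 UMIs (untreated, croton oil, microneedle). The deposited values were raw UMI counts for each gene in each cell. Per the file headers, Cell Ranger 8.0.0 wrote them, and the submitters' processing notes name build GRCm39. A 3′ UMI count stands for 1 captured molecule, so levels were not scaled to gene length.

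Cells with at least 500 genes and at most 10% mitochondrial UMIs were kept. Scrublet's own threshold marked 1, 0 and 0 cells and was taken not to have worked, so the highest-scoring cells were removed at 0.8% per 1000 cells (773, 532 and 376). This left 9054, 7626 and 6479. The Langerhans cells had medians of 11491, 12465 and 17274 UMIs.

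Counts were summed per library and class and changes computed as log2((CPM + 5)/(CPM + 5)). A gene was called at 2-fold where 1 of the 2 libraries reached 20 CPM, and no p-value was computed. Intervals for changes are for the plain ratio. The steps were tested on simulated data. From each gene list, the 3 genes furthest each way in a basal comparison could be named, along with all 10 keratins, other keratins of at least 50 CPM and the 5 genes most like each keratin. The keratins and the gene lists were chosen with earlier results of these data known.

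Alternatives changed the cell filter, doublet removal, keratin and Cd74 limits, split, scaling, cell weighting, pseudocount, minimum level, follicle or cycling cells, and depth. Tools were Python 3.11.15, numpy 2.4.6, scipy 1.17.1, pandas 2.3.3, scanpy 1.11.5, matplotlib 3.10.9, and R 4.3.3 with edgeR 4.0.16 for TMM factors alone.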

Additional observations from a re-analysis of the deposited data

How the results depend on the processing

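No paired analysis was possible because each group had 1 library and the labels carry no replicate numbers, so no library could be left out either. Of 22 alternatives, 4 were chosen after seeing the data: Cd74 under 0.1%, Cd74 at 0.1% to 1%, changes per 10000 UMIs of the 10 keratins, and leaving out 1 untreated droplet. Krt16 and Krt6a stayed at least 2-fold above untreated in both classes under all 22, and Krt15 in microneedle basal cells (-4.13 to -2.05) and Krt2 in croton oil suprabasal cells (-5.95 to -3.53) stayed at least 2-fold below. Alternatives that changed only the minimum level cannot move a log2 change. Levels without the 1 cell with the most UMIs of a keratin were also looked at after seeing the data. They stand beside some of the values they moved, and other values moved as well. Where values moved, the cause was not tested.

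In croton oil against microneedle basal cells the 2 higher keratins became 1 with all deposited barcodes, without doublet removal, with a 1% keratin limit, with a gate built from other genes, with the mean of single cells and without follicle cells. The 1 lower became 4 (Cd74 limit 0.5%), 3 (other-gene gate), 3 (mean of single cells), 3 (without cycling cells), 4 (Cd74 under 0.1%) and 2 (Cd74 0.1% to 1%). In microneedle against untreated basal cells the 1 lower became 2, 4, 5 and 2 with the Cd74 limit of 0.5%, the other-gene gate, Cd74 under 0.1% and Cd74 0.1% to 1%, and 2 per 10000 keratin UMIs. In croton oil against untreated basal cells the 3 lower became 5 (other-gene gate), 5 (Cd74 under 0.1%) and 1 (Cd74 0.1% to 1%). In suprabasal cells of croton oil against microneedle the 2 higher became 4 (Cd74 limit 0.5%), 1 (without cycling cells) and 4 (Cd74 under 0.1%), and the 3 lower became 1 with the mean of single cells.

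The other-gene gate turned the log2 change of Krt1 in croton oil basal cells to -0.08, of Krt15 in microneedle suprabasal cells to -0.69 and, between treated suprabasal cells, of Krt5 to 3.56 and Krt6a to -1.19. Krt15 in microneedle suprabasal cells was also -0.37 without cells near the split, -0.30 with the mean of single cells and -0.45 with Cd74 under 0.1%, and between treated suprabasal cells 0.33 and 2.44 in the first 2 of these. Krt17 in croton oil basal cells turned to 3.61 without follicle cells, 3.29 without cycling cells, 3.41 with Cd74 0.1% to 1% and 3.36 without the 1 droplet. Without cycling cells Krt15 in croton oil basal cells was 0.33 and Krt17 between treated basal cells 0.99. With Cd74 under 0.1%, Krt1 and Krt17 in microneedle suprabasal cells were -0.12 and -1.59. With Cd74 0.1% to 1%, Krt15 between treated basal cells was -1.57 and Krt2 between treated suprabasal cells 0.45.

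The basal share was 27.4% in untreated cells with a Cd74 limit of 0.5% and 86.2% in microneedle cells of at least 10000 UMIs. Stress keratins in croton oil Langerhans cells were at 29.1 CPM, and 33.9 CPM with no upper keratin limit. Unthinned, a Krt16 UMI was found in 16.1%, 79.0% and 57.4% of basal cells. With 23 and 24 treated suprabasal cells, depth limits levels near 3 UMIs per group.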
